A study of Drosophila melanogaster with 6 samples.

Results

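The hrp48 peak list holds all sites that the authors listed for chromatin immunoprecipitation followed by sequencing (ChIP-seq) with an antibody against hrp48 in S2 cells, a Drosophila melanogaster line that was started from embryos. Every listed peak was taken, which gave 938 of the 1958 peaks deposited over both antibodies of the series, the other 1020 being those of the hrp36 list. The immunoprecipitates comprised 2 hrp48 samples and, used here as background, 2 hrp36 samples, with 2 inputs taken as 10% of the chromatin and with no antibody. All 6 samples were described as S2 cells and as primary culture of late-stage material, were fixed for 10 minutes in 1.8% formaldehyde and were sonicated, and the labels name no mutation, knockdown or drug for any of them. One list stands for both hrp48 samples, pooling of the replicates is not stated in the sources used here, and the list carries neither a score nor a read count, so no value below has a replicate error and the read depth is unknown. No test was made between lists or between sequences, because peaks are not replicates, neighbouring peaks are not independent, and both lists may share inputs. Intervals are exact (Clopper-Pearson for shares, Poisson for densities) at 95% and cover the number of peaks alone. Nothing in a list of positions can check which protein the antibody recovered.

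The protein hrp48 is the product of Hrb27C in the RefSeq gene table and belongs to the heterogeneous nuclear ribonucleoproteins, proteins that coat nascent transcripts and travel with the RNA. It carries paired RNA-recognition motifs and a glycine-rich tail, and in Drosophila it is known for repressing and localising oskar mRNA and for blocking the splicing of P-element transcripts in somatic cells. Heterochromatin, which the series title concerns, is the compact part of the genome around centromeres that is packed with satellite repeats and transposable elements. A ChIP-seq peak of such a protein marks DNA that was recovered with it after crosslinking, either through direct contact or through RNA and other proteins held at the site.

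In the dm3 assembly (Release 5) the sequence is divided into the arms (X, 4 and both arms of chromosomes 2 and 3), the mapped heterochromatic sequences whose names end in Het, and the unplaced U and Uextra, which string together scaffolds with no chromosomal position. Most hrp48 peaks were unplaced, whereas the covered sequence was divided almost evenly between the arms and everything else. Heterochromatic and unplaced sequence together held 720 of 938 peaks (76.8%, 73.9 to 79.4%) and 1298.5 of 2548 covered kb (51.0%). The arms held 218 peaks (23.2%, 20.6 to 26.1%) covering 1249.6 kb (49.0%). Uextra had 559 peaks but 758 kb (29.7% of the coverage), and U had 84 peaks and 198 kb (7.76%). The Het sequences had 77 peaks and 343 kb (13.5% of the coverage). In the hrp36 list the part outside the arms was 66.1% of peaks and 44.7% of coverage.

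**Figure D1:**
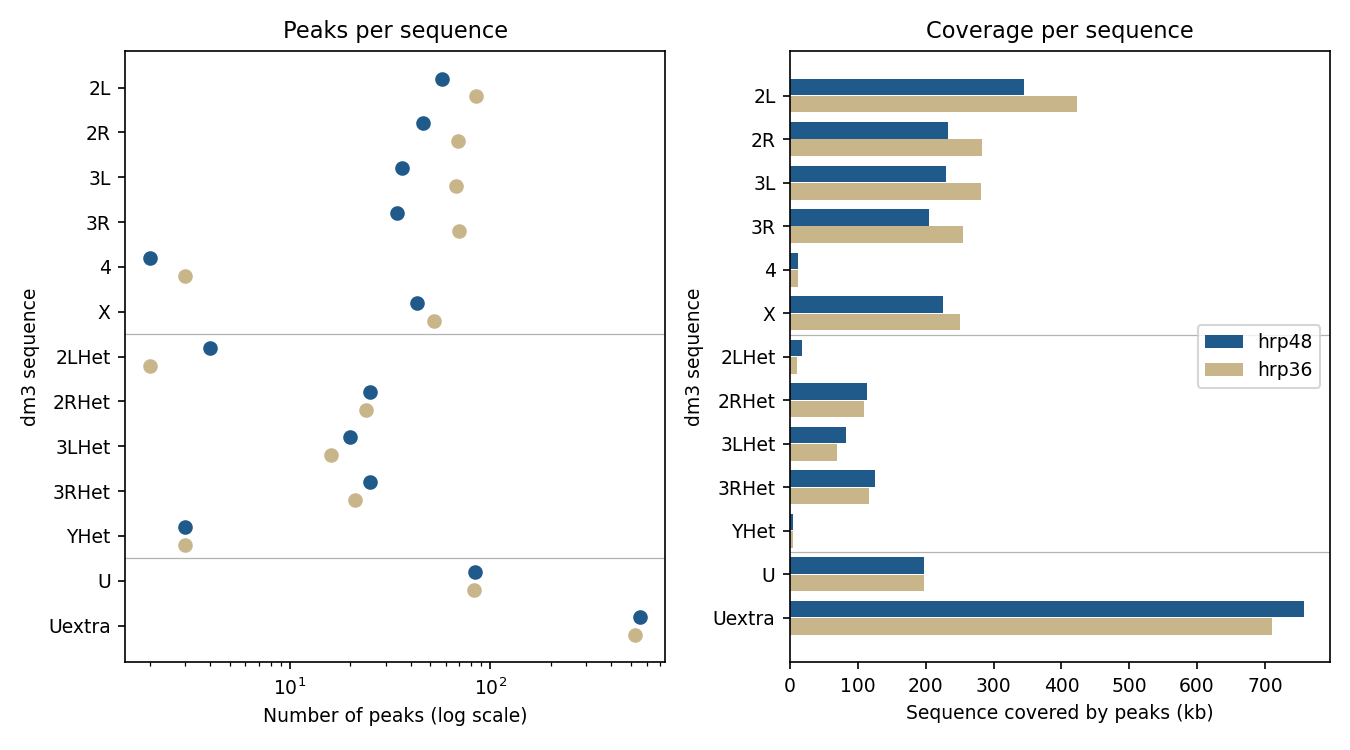
Number of peaks (points, log axis) and kb covered by peaks (bars) on each dm3 sequence, for hrp48 (blue) and hrp36 (tan). Uextra leads for hrp48 in both panels, with 559 peaks and 758 kb, but the arm 2L, with 57 peaks, covers 345 kb.

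As a part of its own extent, Het sequence was the most covered of the 3 classes in the hrp48 list. Peaks took up 3.87% of the Het extent, 2.47% of the unplaced extent and 1.05% of the arms. The extent of a sequence ran from base 1 to the last peak end of either list, so these shares and the densities are upper bounds. Peak density on Het sequence was 8.70 per Mb (6.86 to 10.9), and on the arms it was 1.82 per Mb (1.59 to 2.08), a ratio of 4.77. On Uextra it was 19.5 per Mb (17.9 to 21.2). For hrp36 the covered shares were 3.47% on Het sequence, 2.35% on unplaced sequence and 1.26% on the arms.

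Among the long arms hrp48 peaks were densest on 2L, with 57 peaks or 2.48 per Mb (1.88 to 3.21). The density was 2.18 per Mb on 2R (46 peaks, 1.59 to 2.90), 1.92 on X (43 peaks, 1.39 to 2.59), 1.48 on 3L (36 peaks, 1.03 to 2.04) and 1.25 on 3R (34 peaks, 0.864 to 1.74). Peaks close together are not independent, so these intervals are too narrow to separate arms, and 12 of the 57 peaks of 2L lay in a single stretch of 300 kb. The covered share of the extent gave the same order: 1.501% on 2L, 1.10% on 2R, 1.01% on X, 0.944% on 3L and 0.750% on 3R. Chromosome 4, a small chromosome that is largely heterochromatic, had 2 hrp48 peaks, at 340285 to 349077 (8793 bp) and at 860344 to 862571 (2228 bp), and both overlapped an hrp36 peak.

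Within mapped heterochromatin the hrp48 peaks were spread over 5 sequences, the only Het sequences with a peak in either list. 2RHet and 3RHet had 25 peaks each, 3LHet had 20, 2LHet had 4 and YHet had 3. By coverage 3RHet came first with 124.9 kb (5.09% of its extent), ahead of 2RHet with 113 kb (3.46%), 3LHet with 83.0 kb (3.27%) and 2LHet with 17.1 kb. As a part of the extent 2LHet had 5.66%, from its 4 peaks. Its extent, cut at the last peak, was 0.303 Mb, against 2.45 Mb for 3RHet. A cut raises the share of a short sequence more, so the order of 2LHet and 3RHet is not settled. YHet, which collects mapped pieces of the Y chromosome, had 4.58 kb in its 3 peaks, of 1052, 1622 and 1903 bp. Of the 77 Het peaks, 61 overlapped an hrp36 peak (79.2%), against 198 of 218 on the arms (90.8%). Counted from the hrp36 list the order was reversed. There 61 of 66 Het peaks (92.4%) and 198 of 346 arm peaks (57.2%) overlapped an hrp48 peak.

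Median peak width differed between the sequence classes, with wide overlap between the arms and Het sequence. On the arms the median hrp48 peak was 5745 bp wide (interquartile range 3993 to 7795 bp), on Het sequence 4180 bp (2121 to 6385 bp) and on unplaced sequence 1305 bp (1158 to 1516 bp). The 621 peaks under 2 kb made up 66.2% of the list (63.1 to 69.2%) but 32.3% of its coverage, and 588 of them (94.7%) were unplaced. Another 100 peaks were 2 to under 4 kb wide, with 40 on the arms, 19 on Het sequence and 41 unplaced. Of the 164 peaks of 4 to under 8 kb, 121 (73.8%) were on the arms. So were 42 of the 53 peaks of 8 kb or more (79.2%), 9 others being on Het sequence and 2 on U. Uextra had no peak of 8 kb or more among its 559.

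Seen from the side of the sequences, 15 of 218 arm peaks were under 2 kb (6.88%, 3.90 to 11.1%), against 18 of 77 Het peaks (23.4%, 14.5 to 34.4%) and 588 of 643 unplaced peaks (91.4%, 89.0 to 93.5%). In the hrp36 list 112 of 346 arm peaks (32.4%, 27.5 to 37.6%) were under 2 kb. Over all sequences 838 of 938 hrp48 peaks (89.3%) overlapped an hrp36 peak, and 838 of 1020 hrp36 peaks (82.2%) overlapped an hrp48 peak. All 15 narrow hrp48 arm peaks overlapped an hrp36 peak, and 17 of the 112 narrow hrp36 arm peaks overlapped an hrp48 peak. At 4 kb and above the lists held similar numbers on the arms, 163 for hrp48 and 170 for hrp36. Het peaks of hrp48 overlapped an hrp36 peak in 11 of 18 cases under 2 kb and in 8 of 9 cases of 8 kb or more.

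Arm widths did not follow a single hump. In 250 bp bins the counts of hrp48 arm peaks stood high at 4.5 to 4.75 kb (13 peaks), in the bin that starts at 5.5 kb (20 peaks) and over the bins from 7.5 to 8.5 kb (64 peaks in 4 bins), and were low between them, with 2 peaks at 5 to 5.25 kb and 3 at 7 to 7.25 kb. The windows were picked from this histogram, so their counts are a description. Peaks of 7.5 to under 8.5 kb were 29.4% of arm peaks and 40.8% of arm coverage (510 of 1249.6 kb), with a median of 7998 bp. They lay on every long arm, with 18 on 2L, 15 on 3L, 14 on 2R, 9 on 3R and 8 on X, and 11 of the 64 were in the decile (10% of the extent of an arm) next to the centromere. The 20 peaks of the bin at 5.5 kb, with widths of 5534 to 5748 bp, were also scattered, with 6 on 2L, 5 on 2R, 4 on 3L, 3 on 3R and 2 on X. The count of 20 depends on where the bin starts and was 11 with the bin moved down by 50% of its width. In the hrp36 list the bin at 5.5 kb held 12 arm peaks and the window from 7.5 to 8.5 kb held 65.

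**Figure D2:**
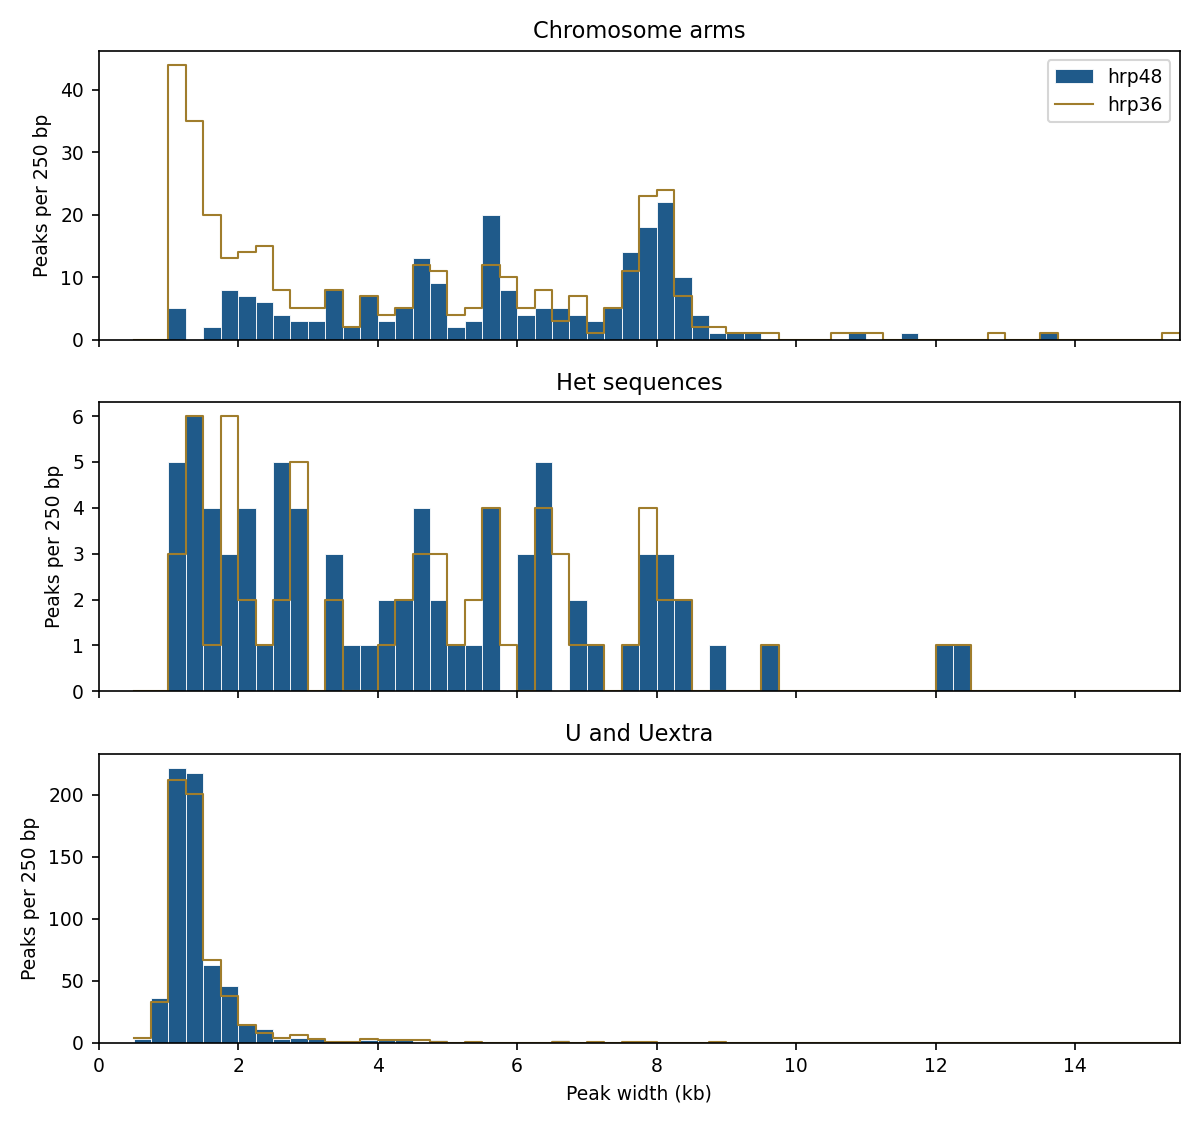
Peak widths in bins of 250 bp on the arms, the Het sequences and unplaced sequence (U and Uextra), for hrp48 (filled bars) and hrp36 (line). On the arms hrp48 counts stand high in the bin from 5.5 kb (20 peaks) and from 7.5 to 8.5 kb (64 peaks), and the hrp36 line is far above the hrp48 bars under 2 kb.

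Each of these recurring widths was compared with the hrp36 peak at the same place. Every one of the 20 hrp48 peaks of the bin at 5.5 kb overlapped a single hrp36 peak, and all 20 were narrower than it, with a median difference in width, hrp48 minus hrp36, of -133.5 bp (interquartile range -165 to -87.5 bp). The hrp36 counterparts had a median width of 5738 bp. Of the 22 peaks of 4.5 to under 5 kb, 21 had a single hrp36 counterpart. Of these 21, 11 were narrower than it, and the median difference was -10 bp (-87 to 76 bp). Of the 64 peaks of 7.5 to under 8.5 kb, 61 had a single hrp36 counterpart, 38 of these were narrower than it, and the median difference was -21 bp (-62 to 34 bp). Over all 197 arm peaks with a single counterpart, 118 were narrower in the hrp48 list and the median difference was also -21 bp (-80 to 46 bp). The narrower set had been picked by its hrp48 width, and that choice was not allowed for.

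The 4 widest hrp48 peaks of the arms were on 2L. The first, at 2L 22424700 to 22438357 (13658 bp), lay in the decile next to the centromere. The second and the fourth, at 13574818 to 13586412 (11595 bp) and 13565509 to 13574766 (9258 bp), were 51 bp apart in the middle of the arm and together spanned 20.9 kb, the closest pair of arm peaks in the list. The left one overlapped an hrp36 peak of 8845 bp that ended 33 bp before the start of the right one. The right one overlapped none, and the next hrp36 peak began 1119 kb further on. The third widest arm peak was at 2L 20272009 to 20282873 (10865 bp) and the fifth at 3L 22777506 to 22786524 (9019 bp).

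On Het sequence the widest were 3RHet 58339 to 70688 (12350 bp), 2RHet 1143664 to 1155724 (12061 bp), 3RHet 167929 to 177589 (9661 bp), 3RHet 192738 to 201714 (8977 bp) and 2RHet 710383 to 718808 (8426 bp). Among these 5 the 8977 bp peak had no hrp36 overlap, and of all 77 Het peaks 61 had one (79.2%). All 5 of the widest unplaced peaks were on U, from 6656 to 9027 bp, and all overlapped an hrp36 peak. So did 579 of all 643 unplaced peaks (90.0%). Those of the 5 widest Het peaks that were on 3RHet, 3 in number, lay within 143 kb.

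Neighbouring hrp48 peaks were usually far apart on the arms and closer elsewhere. A gap was counted as the bases between the end of a peak and the start of the next. The median of 212 arm gaps was 314 kb (interquartile range 85.4 to 693 kb), that of 72 Het gaps was 82.7 kb (7.31 to 175 kb) and that of 641 unplaced gaps was 38.3 kb (14.7 to 71.0 kb). On the arms 39 gaps (18.4%) were longer than 1 Mb and 16 (7.55%) were 10 kb or less. On Het sequence 20 of 72 gaps were 10 kb or less, while 29 (40.3%) were longer than 100 kb, so short and long gaps stood side by side there. Of the unplaced gaps 425 of 641 (66.3%) lay between 10 and 100 kb, but gaps across scaffold joins have no chromosomal meaning. By long arm the median gap was 231 kb on 2L, 241 kb on 2R, 314 kb on X, 455 kb on 3R and 515 kb on 3L.

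**Figure D3:**
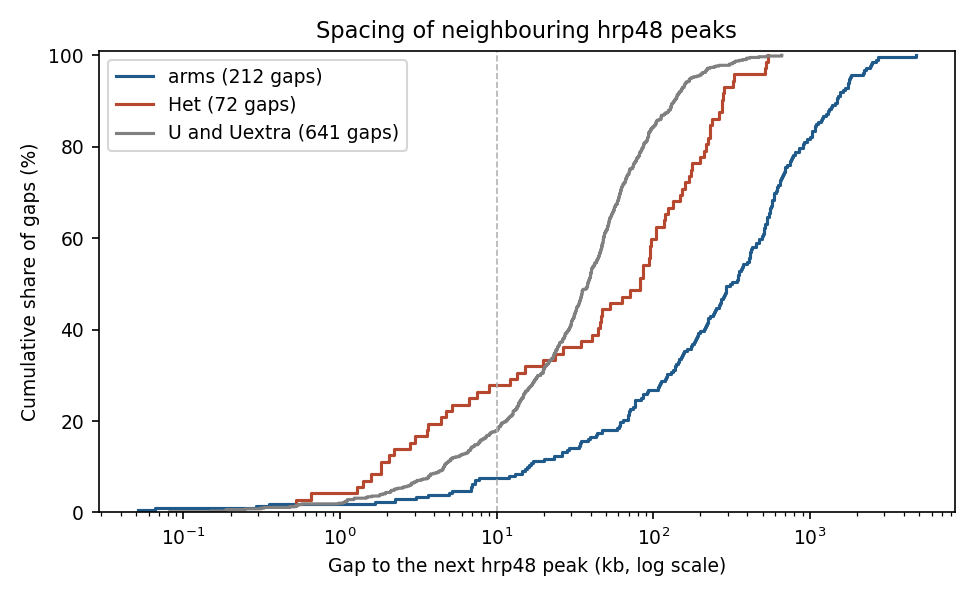
Cumulative share of gaps between neighbouring hrp48 peaks (y axis, %) up to each gap length (x axis, kb, log scale) on the arms, on Het sequence and on U and Uextra; the dashed line marks 10 kb. The Het curve lies above both others at 10 kb and the arm curve lies below the other curves from there on, with medians of 82.7 kb (Het), 38.3 kb (unplaced) and 314 kb (arms).

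The share of peaks with another hrp48 peak within 10 kb was 45.5% on Het sequence (35 of 77, 34.1 to 57.2%) and 12.8% on the arms (28 of 218, 8.71 to 18.0%). A peak and its close neighbour are both counted, so these intervals are too narrow. It was 31.6% on unplaced sequence (203 of 643, 28.0 to 35.3%), where a neighbour may belong to another scaffold. The mapped sequences 2LHet, 2RHet, 3LHet and 3RHet each had 44 to 50% of their peaks in such company, and the 3 YHet peaks had none. On the arms the share was 21.1% on 2L (12 of 57), 17.4% on 2R (8 of 46), 11.8% on 3R (4 of 34), 5.56% on 3L (2 of 36) and 4.65% on X (2 of 43). The hrp36 list had 37.9% on Het sequence and 19.1% on the arms.

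Joining peaks with gaps of at most 10 kb gave 672 single peaks, 91 pairs, 16 runs of 3 and 8 runs of 4 or more, 24 runs of at least 3 peaks in all. Of these 24, 18 were on Uextra, 2 on U, 1 on 3LHet, 1 on 3RHet, 1 on 2L and 1 on 2R. Without Uextra 6 runs were left. A run on U or Uextra may join peaks of different scaffolds, because scaffold borders are not marked in the list. The hrp36 list had 25 runs of at least 3 peaks, 15 of them on Uextra. The hrp48 run with most peaks was on 3LHet at 1069969 to 1107841, where 6 peaks covered 21.3 of 37.9 kb (56.2%). Their widths along the sequence were 4920, 2121, 3269, 6193, 3258 and 1527 bp, and the gaps between them ran from 1581 to 5196 bp. The first 5 overlapped hrp36 peaks and the last did not.

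Both hrp48 runs of 5 were on Uextra and differed in their packing, which has no chromosomal meaning if a run crosses scaffold joins. At the place of the first, the hrp36 list also had a run of 5 peaks, at 13419363 to 13431579. The run at 13419376 to 13431580 had widths of 1460, 1248, 1414, 1464 and 1380 bp and covered 57.1% of its 12.2 kb. The run at 23857930 to 23889665 had widths of 1265, 1166, 1119, 1073 and 1081 bp and covered 18.0% of its 31.7 kb. In each of these runs the peaks were within 216 and 192 bp of one another in width, whereas the 3LHet run mixed narrow and wide peaks.

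On the arms the runs of at least 3 were both of 4 peaks and both in the decile next to the centromere. On 2R, at 1266163 to 1292346, the widths were 1752, 7273, 2204 and 2115 bp. On 2L, at 21587301 to 21611640, they were 2623, 2223, 4941 and 2027 bp, and the last 2 peaks were 66 bp apart. The 2L run lies in a stretch of 300 kb with 12 hrp48 and 19 hrp36 peaks, in which the hrp36 list had its longest run, of 9 peaks at 21645624 to 21725150. The densest 100 kb windows of the arms were 5 windows with 4 hrp48 peaks each. Of these, 3 make up this stretch of 2L, and the other 2 start at 0.8 and 1.2 Mb of 2R. Of 180 arm windows of 100 kb with any hrp48 peak, 155 had 1.

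Along the long arms the hrp48 peaks were most numerous in the decile next to the centromere. That decile held 64 of 216 peaks (29.6%, 23.6 to 36.2%) and the next 22 (10.2%). Each of the remaining 8 deciles held 11 to 21 peaks, or 5.09 to 9.72%. By arm the first decile held 19 of 57 peaks on 2L, 17 of 46 on 2R, 12 of 36 on 3L, 9 of 43 on X and 7 of 34 on 3R. On X and 3R the first decile was close to the next highest one, with 9 against 7 peaks on X and 7 against 5 on 3R. Without the stretch of 300 kb on 2L the first decile held 52 of 204 peaks (25.5%). In the full hrp36 list it held 83 of 343 peaks (24.2%, 19.8 to 29.1%).

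**Figure D4:**
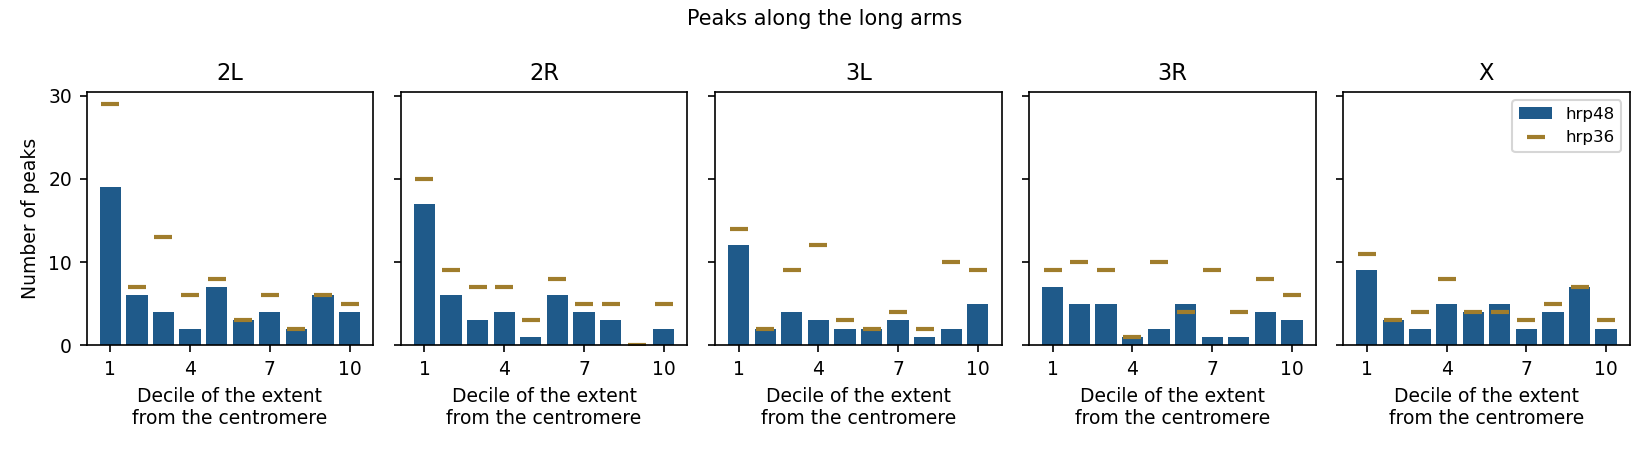
Number of peaks in each decile of the extent of the 5 long arms, counted from the centromere, for hrp48 (bars) and hrp36 (dashes). The first hrp48 bar is the highest on every arm, from 7 peaks on 3R to 19 on 2L.

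Peaks of this first decile had a lower median width than those further out on all 5 long arms, and more often had a close neighbour on 4 of them. In width their median was 4810 bp over 64 peaks, with quartiles at 3164 and 7298 bp. The median of the 152 peaks further out was 6065 bp, with quartiles at 4572 and 7928 bp, and the proximal median was the lower on each of the 5 arms, by the least on 3R (6173 against 6323 bp). The ranges overlap widely. Of the peaks under 2 kb on the long arms, 6 of 15 (40.0%, 16.3 to 67.7%) lay in the first decile. Of those of 2 to under 4 kb, 18 of 39 (46.2%, 30.1 to 62.8%) did, against 33 of 121 (27.3%, 19.6 to 36.1%) of those of 4 to under 8 kb and 7 of 41 (17.1%, 7.15 to 32.1%) of those of 8 kb or more. Another hrp48 peak lay within 10 kb for 20 of 64 proximal peaks (31.2%) and for 8 of 152 others (5.26%), and 12 of the 16 arm gaps of 10 kb or less were in the first decile. The arms 2L and 2R supplied 8 each of the 20 proximal peaks with such a neighbour, and 3L and X supplied 2 each. On 3R the order was the other way round, with 0 of 7 proximal peaks and 4 of 27 others. The part that overlapped an hrp36 peak was 59 of 64 (92.2%) in the first decile and 137 of 152 (90.1%) beyond it. In the hrp36 list 24 of 41 arm gaps of 10 kb or less were in the first decile. Of hrp36 long-arm peaks under 2 kb, 17 of 111 (15.3%) lay there. The hrp36 shares in the wider classes, from narrow to wide, were 38.1%, 27.8% and 16.3%.

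Widths also changed with position along the unplaced sequences. On Uextra the median hrp48 width was 1615 bp in the first decile of the extent (59 peaks, interquartile range 1392 to 1762 bp) and 1039 bp in the last (31 peaks, 922 to 1231 bp). The deciles between had medians of 1166 to 1378 bp. Peaks under 1 kb numbered 11 of 31 in the last decile and at most 6 in any other. The overlap with hrp36 was 67.7% in the last decile (21 of 31, 48.6 to 83.3%) and 86.4 to 96.8% in the other 9. On U the 11 peaks of the first 2 deciles had medians of 6669 and 5097 bp, against 1220 to 2160 bp in the other deciles, which held 4 to 22 peaks each. The hrp36 medians on Uextra were 1604 bp in the first decile and 1092 bp in the last. The scaffold borders within U and Uextra are not marked in the list, and whether scaffold length moves with these widths was not tested.

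**Figure D5:**
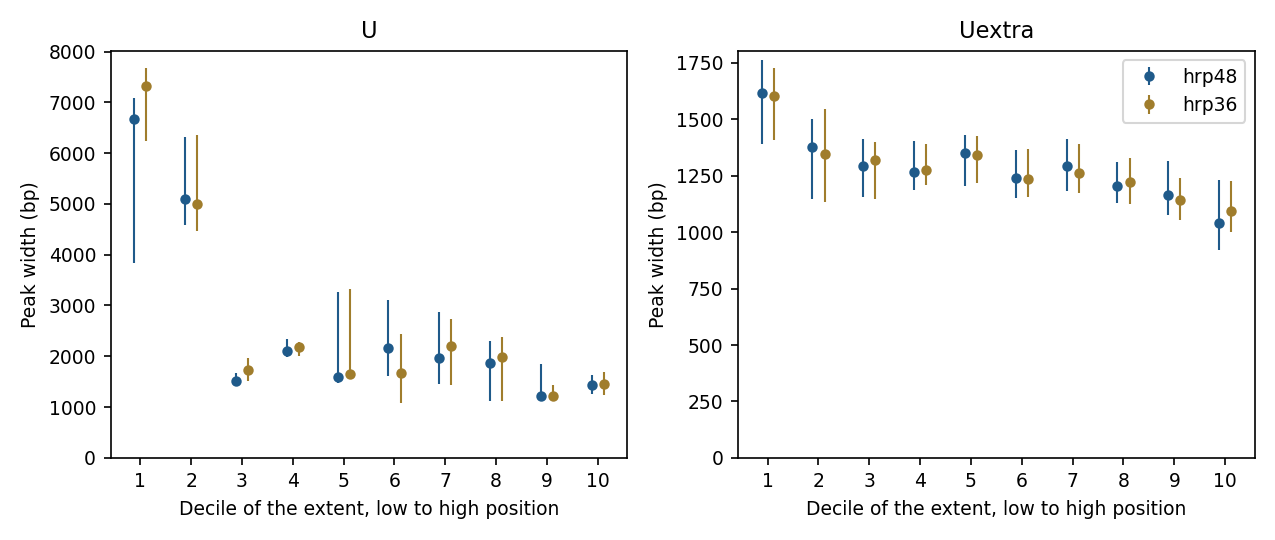
Median peak width (points) with the interquartile range (bars) in each decile of the extent of U and Uextra, from low to high position, for hrp48 (blue) and hrp36 (brown). On Uextra the hrp48 median is 1615 bp in the first decile and 1039 bp in the last, and on U the first 2 deciles stand above the rest.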

How the data were processed

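The authors deposited 1 list of peaks per antibody, with 4 columns and no header: sequence, start, end and a running name of the form MACS writes. Starts and ends are whole-number positions with no score, fold or p-value. The build was dm3, and the tools named were MACS 1.4.2 and Bowtie2 2.2.2, per the submitters' processing notes; settings, pooling and the control are not given in the sources used here. Names run from 1 to 938 without a gap, and no peaks of the list overlap. Samples were grouped by title.

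Starts were read as counted from 0 and printed from 1. An overlap of at least 1 bp with an hrp36 peak counted as shared. On 2R and 3R positions were counted from the low end, where the centromere lies, and on 2L, 3L and X from the high end. Peaks were assigned to deciles and windows by their midpoint. Computations used Python 3.11.15, pandas 2.3.3, numpy 2.4.6 and scipy 1.17.1 and were tested on simulated lists. Named regions were the 5 widest peaks of each sequence class, the 5 runs with most peaks, the 3 densest arm windows of 100 kb (5 were tied and all are given), the 3 longest peak-free stretches, the chromosome 4 peaks and the 5 commonest widths; other sites were chosen after their values were seen. Members, classes and alternatives were chosen with earlier results of these data known. Gene models and sequence of dm3 were not used here, and the gene table at hand is of Release 6, so no gene is placed at a peak.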

Additional observations from a re-analysis of the deposited data

How the results depend on the processing

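Of 48 alternatives to 12 results, 23 stayed within the interval of the reported value (or, for counts, within 1.5 times), and the 8 on the 2 recurring widths were added once the data had been seen. All values describe 1 list, and read depth and peak strength could not be used.

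The share of peaks outside the arms was 42.5% without Uextra, 26.1% without U and Uextra, 35.96% for peaks of at least 2 kb and 54.6% for the upper 50% by width. The share of coverage outside the arms was 30.2% without Uextra, 21.53% without U and Uextra and 29.0% for peaks of at least 2 kb. The narrow share was 52.8% with a limit of 1.5 kb, 73.3% with 3 kb, 21.9% without Uextra and 6.88% on the arms alone. The share of arm peaks with a neighbour was 7.80% within 5 kb and 19.3% within 20 kb, and 28.4% over all sequences within 10 kb. Runs of at least 3 peaks numbered 10 with gaps of at most 5 kb, 52 with 20 kb, 6 without Uextra and 2 on the arms. The proximal share was 16.7% for the proximal 5% and 39.8% for the proximal 20%. The share of peaks with an equal width elsewhere was 67.5% within 2 bp, 7.39% without Uextra, 7.34% on the arms and 8.20% for peaks of at least 2 kb. The count of 20 in the bin from 5.5 kb was 11 with the bin moved down by 50% of its width. Most of these alternatives change by construction which peaks, limits or widths are counted. The ratio of Het to arm density stayed within its interval, from 3.81 with peaks merged within 10 kb to 4.75 with extents from the hrp48 list alone. No paired analysis was possible because the lists give no value per replicate.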

Other observations

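Over the whole hrp48 list exact repeats of a peak width were common but no more frequent than near repeats. Of 938 peaks, 344 (36.7%, 33.6 to 39.8%) had the width of another peak to the base pair. Among the 643 unplaced peaks by themselves it was 297 (46.2%). The list held 238 pairs of equal width, against a mean of 253 pairs (232.5 to 266.5) at each difference of 1 to 20 bp, divided by 2 because either peak of a pair can be the wider. On the arms there were 8 equal pairs, few but above the mean of 4.60 and its range (2 to 7), and on Het sequence there were 0. The commonest width, 1334 bp, was found 5 times, each time on Uextra. The widths 1395, 1299 and 1150 bp were found 4 times each, again on Uextra, and 1622 bp was found once each on U, Uextra and YHet.

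The longest stretches of the long arms between hrp48 peaks were 4.76 Mb on 2R (15850288 to 20615176), 2.72 Mb on 3L (3606807 to 6327779) and 2.65 Mb on 3R (19386242 to 22041173). The hrp36 list had 3, 6 and 4 peaks inside them, in that order, and 2.90 peaks per Mb over the arms as a whole.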
